A study of Mus musculus with 15 samples.

Results

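Glutathione S-transferases (GSTs) were followed across liver tumors, peritumoral liver and wild type liver of mice. The group was fixed by gene symbol and holds 10 genes, Gsta3 and Gsta4 of the alpha class, Gstm1, Gstm2, Gstm3, Gstm5 and Gstm6 of the mu class, Gstt1 and Gstt3 of the theta class and the microsomal Mgst3. The members were chosen with earlier results of these data known, so their counts beside all genes describe the group and are no test of it. All 10 were measured, out of 12393 genes in all, by 16 probe sets, and 6 of them by 1 probe set only. The study asked which genes are deregulated as fatty liver disease progresses to hepatocellular carcinoma in knockout (KO) mice, and this series holds its MAT1A KO model at the age of 15 months. Total RNA of 15 tissue samples of the strain background C57B6SJL was hybridised to Affymetrix arrays, 5 from tumors of MAT1A KO mice that histopathology had determined to be hepatocellular carcinoma, 5 from peritumoral liver of MAT1A KO mice and 5 from liver of healthy wild type mice, all 15 months old and none treated. The labels call the KO samples biological replicates, and they give no sex, no batch and no statement on pooling. Each sample is a piece of whole tissue, so fewer cells of a type and less RNA per cell cannot be told apart.

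GSTs join the thiol of glutathione to electrophilic molecules, which can then be exported from the hepatocyte and processed to mercapturates. The alpha, mu and theta enzymes are soluble dimers, and liver, the main site of detoxification, is rich in them. Several of their genes carry antioxidant response elements, the DNA motif bound by NRF2 with a small MAF protein, and are induced by electrophiles and by ligands of xenobiotic receptors. Mat1a encodes the liver methionine adenosyltransferase, which makes S-adenosylmethionine (SAMe), and carbon and sulfur that pass through SAMe can reach cysteine and so glutathione.

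Promoter sequence is shown for Gstm5, the member that passed the test in tumors, for Gsta3, whose ratio there was smaller than its standard error, and for Gstm3, the member with the largest SD in peritumoral and in wild type liver. The windows are the 250 bases before the annotated start in RefSeq, build GRCm38.p6, 5′ to 3′ on the strand of the gene, and 9 of the 10 members have such a window. Capitals mark the matches to a motif searched on both strands, which is TGACNNNGC (the core of the antioxidant response element) in Gstm5 and Gsta3 and CTTTGA (the core bound by TCF and LEF, read as TCAAAG on the other strand) in Gstm3. The windows are chr3:107895604-107895853 on the + strand for Gstm5, chr1:21240335-21240584 on the + strand for Gsta3 and chr3:107969175-107969424 on the - strand for Gstm3.
Gstm5: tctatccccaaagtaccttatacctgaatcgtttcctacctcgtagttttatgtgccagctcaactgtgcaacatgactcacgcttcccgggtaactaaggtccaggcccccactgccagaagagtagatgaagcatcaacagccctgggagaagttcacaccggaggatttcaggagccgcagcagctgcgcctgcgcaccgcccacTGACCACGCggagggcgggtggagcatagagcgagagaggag
Gsta3: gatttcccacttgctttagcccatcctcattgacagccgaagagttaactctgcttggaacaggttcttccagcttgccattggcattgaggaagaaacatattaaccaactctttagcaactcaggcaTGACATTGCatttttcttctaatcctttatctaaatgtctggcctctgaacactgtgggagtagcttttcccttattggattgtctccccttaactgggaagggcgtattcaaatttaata
Gstm3: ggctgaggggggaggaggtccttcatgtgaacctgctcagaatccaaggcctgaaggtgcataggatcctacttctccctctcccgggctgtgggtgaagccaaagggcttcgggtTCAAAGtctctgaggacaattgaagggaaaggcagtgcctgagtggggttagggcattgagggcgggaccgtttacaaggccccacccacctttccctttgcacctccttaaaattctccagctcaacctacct

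Counted from the start, the match begins at position -42 in Gstm5 and at position -121 in Gsta3, and no other member with a window holds the letters of this motif there. Of 32851 windows of this length, 10.2% hold TGACNNNGC, and 11.5% of 27025 genes have such a window. The letters CTTTGA occur in 13.8% of the windows, and among the members only in that of Gstm3, beginning at position -134. A match of letters is a description of the sequence and not a binding site, and 1 gene with a match passed the test while the other did not. In the RefSeq gene order of this build the mu class genes stand side by side on chromosome 3, in the order Gstm5, Gstm7, Gstm6, Gstm3, Gstm2, Gstm1 and Gstm4, and Gstt3 stands beside Gstt1 on chromosome 10. Genes of this cluster are alike in sequence, and probe sets of 1 mu class gene may bind transcripts of another, which the arrays cannot resolve.

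All values are log2 values of RMA (robust multi-array average), so that a difference of 1 is a factor of 2. Groups were compared with limma, and a gene passed where its p adjusted by the Benjamini-Hochberg method over all 12393 genes was under 0.05. Mat1a, the targeted gene, was read at 8.72, 10.47, 8.63, 8.33 and 10.50 in tumors 1 to 5, at 8.84, 11.44, 9.02, 8.99 and 9.29 in peritumoral samples 1 to 5, and at 12.25 to 12.72 in wild type liver. Every KO array lay below every wild type array. The ratio was -3.19 (SE 0.43, adjusted p = 0.0165) for tumors and -3.01 (SE 0.44, adjusted p = 0.0598) for peritumoral liver, against wild type liver, and the sources used here do not say whether its probe set falls inside the deleted sequence. Peritumoral sample 2 had the highest Mat1a value of the KO arrays. Some arrays stood apart from their group. Wild type sample 4 had a mean of 10.70 over 7 measured granulocyte markers, against 4.92 to 5.51 in the other wild type samples. Hsd3b5 and Elovl3, chosen after their values were seen, were read at 3.68 and 4.66 in this sample. The other wild type samples had 10.51 to 11.37 and 12.46 to 12.98, so sample 4 differed in more than granulocyte markers. The KO arrays had 3.40 to 4.83 and 4.28 to 10.06, so for both genes this wild type sample lay inside the KO range. Peritumoral sample 2, tumor 2 and tumor 5 had the lowest mean correlations with their groups, at 0.938, 0.929 and 0.931. The 3 set-aside arrays named below are wild type sample 4, peritumoral sample 2 and tumor 2, which were left out together in an alternative chosen after seeing the data, and tumor 5 was left out with them only where it is named. Hepatocyte markers, 9 of 10 of them measured, averaged 12.48 to 13.19 in tumors, 12.98 to 13.21 in peritumoral liver and 13.01 to 13.10 in wild type liver.

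Tumors were compared with wild type liver to find which GSTs differ in hepatocellular carcinoma of the KO model. Gstm5 rose in tumors, 2.45-fold, and was the only member to pass. The ratios of Gstm2, Gstm3 and Gsta4 were as large or larger, at 4.68-fold, 3.67-fold and 2.48-fold, without passing, and those of Gsta3, Gstt1 and Gstm6 were smaller than their standard errors. The 1 passing member of 10 stands beside 0.565% of all genes that passed in either direction and 0.339% that rose. At an unadjusted p under 0.05, 5 members were called, all of them higher in tumors, beside 17.4% of all genes in either direction and 7.46% that were higher. In 9 of the 10 members the ratio was above 0, as it was in 41% of all genes, and the median ratio was 0.51 for the members and -0.05 for all genes.

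**Figure D1:**
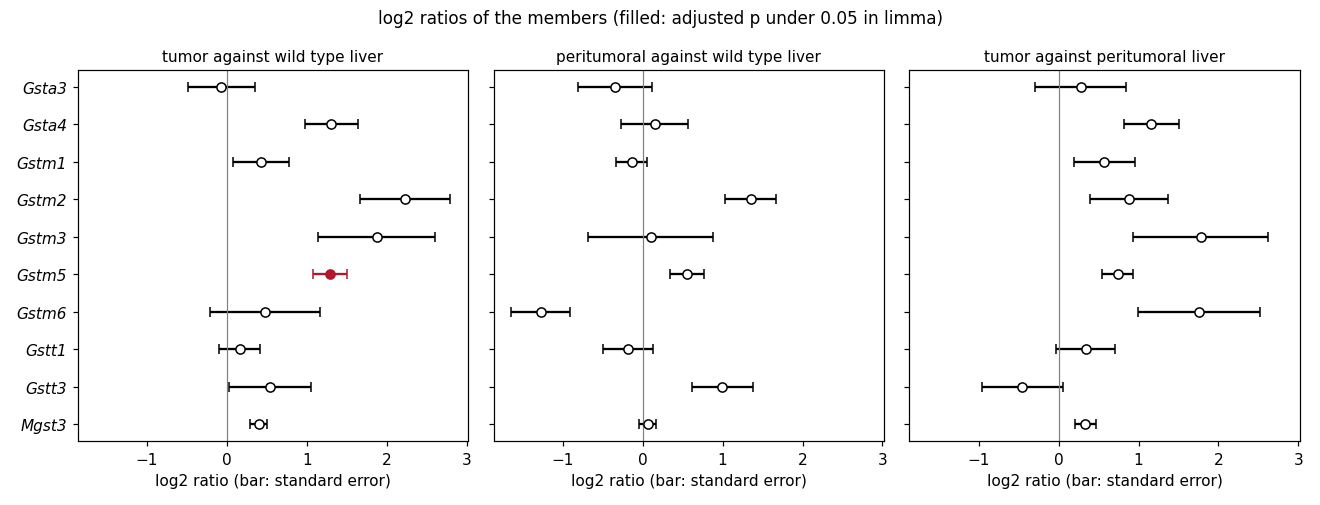
Log2 ratios of the 10 members in the 3 comparisons, with the standard error of limma as a bar and a filled point where the adjusted p was under 0.05. Only Gstm5 in tumors against wild type liver is filled, at 1.29, and the ratios of Gstm2, Gstm3 and Gsta4 beside it are as large or larger with wider bars.

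Gstm5, of the mu class, was measured by 1 probe set. Its values were 9.69, 8.95, 9.47, 9.80 and 9.55 in tumors 1 to 5, against 8.07, 7.97, 7.82, 8.84 and 8.30 in wild type samples 1 to 5. The groups did not overlap, and the lowest tumor stood close above the highest wild type array, sample 4. The ratio was 1.29 (SE 0.21, adjusted p = 0.0351). The peritumoral mean lay in between, with 8.65, 8.84, 9.04, 9.03 and 8.22 in peritumoral samples 1 to 5, which overlapped both other groups. It had a ratio to wild type liver of 0.55 (SE 0.21, adjusted p = 0.276) and a ratio of tumors to peritumoral liver of 0.74 (SE 0.20, adjusted p = 0.260). The order of the means was thus tumor, peritumoral and wild type, and neither neighbour in it passed the test against the next. The call in tumors was lost on leaving out tumor 1 (adjusted p = 0.0760), tumor 4 (0.0786) or wild type sample 1 (0.131), 2 (0.121), 3 (0.119) or 5 (0.0981), while the ratio stayed between 1.20 and 1.45 over all 10 arrays left out in turn. Without the 3 set-aside arrays the ratio was 1.59 (adjusted p = 0.000860). These arrays, chosen after seeing the data, include the lowest tumor and the highest wild type array for Gstm5, so this p is no independent support.

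Gstm2, the mu class gene beside Gstm1 on chromosome 3, had the largest ratio of the members. It was read at 12.08, 9.45, 10.34, 11.32 and 9.32 in tumors 1 to 5, at 9.70, 9.25, 9.87, 9.70 and 9.59 in peritumoral samples 1 to 5 and at 8.16, 7.70, 7.44, 8.70 and 9.37 in wild type samples 1 to 5. Tumors 1 and 4 were highest and tumor 5 lay inside the wild type range. The peritumoral values were close to each other, and 4 of the 5 were above every wild type array. The ratio was 2.23 (SE 0.57, adjusted p = 0.0969) for tumors and 1.35 (SE 0.32, adjusted p = 0.149) for peritumoral liver, each against the same wild type arrays. Tumors and peritumoral liver differed by 0.88 (SE 0.49, adjusted p = 0.644), and by 0.48 without tumor 1. Where all 3 groups were fitted together the tumor ratio of Gstm2 passed (adjusted p = 0.0315).

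Gstm3, another mu class gene, varied widely within each group. Its values were 12.42, 9.97, 11.69, 12.16 and 9.31 in tumors 1 to 5, 9.34, 7.37, 9.86, 11.60 and 8.51 in peritumoral samples 1 to 5 and 8.37, 8.57, 8.38, 11.18 and 9.68 in wild type samples 1 to 5. Tumors 1, 3 and 4 exceeded every wild type array, tumors 2 and 5 did not. The high wild type array was sample 4, the array with high granulocyte markers, whose part in the result was not tested. The ratio of tumors to wild type liver was 1.88 (SE 0.73, adjusted p = 0.233), 2.36 without that sample (adjusted p = 0.0898) and 3.34 without the 3 set-aside arrays and tumor 5 (adjusted p = 0.00133). The last setting was chosen after seeing the data. It leaves out tumors 2 and 5, the lowest for Gstm3, and the highest wild type array, so its p is no independent support. Peritumoral liver differed from wild type liver by 0.10 (SE 0.78, adjusted p = 0.960), and tumors from peritumoral liver by 1.78 (SE 0.84, adjusted p = 0.566). Both probe sets of Gstm3 gave a similar difference between tumors and wild type liver, 2.06 and 1.69.

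Gstm6 lay on different sides of wild type liver in peritumoral samples and in some tumors. It was read at 10.94, 6.86, 7.69, 10.13 and 9.52 in tumors 1 to 5, at 7.74, 5.78, 7.69, 7.88 and 7.27 in peritumoral samples 1 to 5 and at 8.96, 8.39, 8.14, 8.44 and 8.80 in wild type samples 1 to 5. All peritumoral values lay below all wild type values. Tumors 1, 4 and 5 lay above the wild type range and tumors 2 and 3 below it. The ratio to wild type liver was 0.48 (SE 0.69, adjusted p = 0.737) for tumors and -1.28 (SE 0.37, adjusted p = 0.205) for peritumoral liver, and that of tumors to peritumoral liver was 1.76 (SE 0.76, adjusted p = 0.531). The tumor ratio moved with single arrays, to 0.0025 without tumor 1, 0.20 without tumor 4, 0.81 without tumor 3 and 1.02 without tumor 2. Without the 3 set-aside arrays, Gstm6 passed in peritumoral liver, with a ratio of -0.93 (adjusted p = 0.0260).

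Gstm1, the main mu class enzyme of mouse liver, is covered by 4 probe sets, whose differences between tumors and wild type liver were 0.40, 0.33, 0.48 and 0.50. Tumors ranged from 10.10 in tumor 5 to 12.02 in tumor 4, peritumoral samples from 10.28 to 11.07 and wild type samples from 10.53 to 11.12. Tumors 1, 3 and 4 exceeded the wild type range and tumor 5 fell short of it. The ratio to wild type liver was 0.43 (SE 0.35, adjusted p = 0.547) for tumors and -0.14 (SE 0.19, adjusted p = 0.720) for peritumoral liver, and tumors differed from peritumoral liver by 0.57 (SE 0.38, adjusted p = 0.710). The tumor ratio to wild type liver was 0.25 without tumor 1 or without tumor 4 and 0.73 without tumor 5, and it passed at 1.06 without the 3 set-aside arrays and tumor 5 (adjusted p = 0.00744). That setting, chosen after seeing the data, leaves out tumors 2 and 5, the lowest for Gstm1, so its p is no independent support.

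Of the alpha class, Gsta4 encodes the enzyme with high activity towards 4-hydroxynonenal, a product of lipid peroxidation. It was read at 10.91, 10.26, 10.16, 10.51 and 9.94 in tumors 1 to 5, at 9.12, 8.19, 9.84, 10.06 and 8.79 in peritumoral samples 1 to 5 and at 9.77, 9.0, 8.57, 8.13 and 9.77 in wild type samples 1 to 5. Every tumor exceeded every wild type array, and 4 of the 5 exceeded every peritumoral array. The ratio was 1.31 (SE 0.33, adjusted p = 0.0949) against wild type liver and 1.16 (SE 0.34, adjusted p = 0.311) against peritumoral liver, whereas peritumoral and wild type liver differed by 0.15 (SE 0.42, adjusted p = 0.868). Gsta3, whose mouse enzyme conjugates the epoxide of aflatoxin B1, overlapped in all groups. It ranged from 10.22 to 12.23 in tumors, from 9.21 to 11.85 in peritumoral liver and from 10.66 to 11.92 in wild type liver. Its ratio to wild type liver was -0.07 (SE 0.42, adjusted p = 0.947) for tumors and -0.34 (SE 0.46, adjusted p = 0.714) for peritumoral liver, and tumors differed from peritumoral liver by 0.28 (SE 0.57, adjusted p = 0.933). The sign for tumors is not settled, since its 2 probe sets gave 0.06 and -0.20.

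Neither theta class member passed. Gstt1, which acts on small halogenated hydrocarbons, ranged from 10.73 to 12.21 in tumors, from 10.09 to 11.96 in peritumoral liver and from 11.15 to 11.84 in wild type liver, with ratios of 0.16 (SE 0.26, adjusted p = 0.768) for tumors and -0.18 (SE 0.31, adjusted p = 0.776) for peritumoral liver against wild type liver. Tumors and peritumoral liver differed by 0.34 in Gstt1 (SE 0.37, adjusted p = 0.843). Gstt3, its neighbour on the chromosome, was read at 7.45, 8.11, 8.33, 6.75 and 9.65 in tumors 1 to 5, at 8.43, 8.23, 9.40, 8.85 and 7.64 in peritumoral samples 1 to 5 and at 7.97, 7.27, 7.11, 6.73 and 8.49 in wild type samples 1 to 5. Tumors 1 and 4, the highest for most other members, were the lowest for Gstt3. Its ratio to wild type liver was 0.54 (SE 0.51, adjusted p = 0.599) for tumors and 1.00 (SE 0.38, adjusted p = 0.277) for peritumoral liver, and it was the only member whose mean was lower in tumors than in peritumoral liver, by a ratio of -0.45 (SE 0.51, adjusted p = 0.849). On leaving out each array in turn the tumor ratio to wild type liver lay between 0.017 and 0.39 for Gstt1, without tumor 1 and without tumor 2, and between 0.15 and 0.87 for Gstt3, without tumor 5 and without tumor 4.

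Mgst3, a membrane protein with glutathione-dependent peroxidase activity, showed a small difference with little spread. Its values were 7.06, 6.73, 6.77, 6.85 and 6.57 in tumors 1 to 5, against 6.63, 6.17, 6.54, 6.67 and 6.31 in peritumoral samples 1 to 5 and 6.45, 6.31, 6.31, 6.55 and 6.38 in wild type samples 1 to 5. Every tumor exceeded every wild type array, tumor 5 by little. The ratio was 0.40 (SE 0.10, adjusted p = 0.106) for tumors and 0.06 (SE 0.11, adjusted p = 0.779) for peritumoral liver against wild type liver, and 0.33 (SE 0.13, adjusted p = 0.476) for tumors against peritumoral liver. Its 2 probe sets were unequal, since 1 of them differed by 0.96 between tumors and wild type liver and the other, which was read at 4.17 to 4.53 in tumors and at 4.31 to 4.99 in wild type liver, by -0.17. With the brighter probe set alone the tumor ratio of Mgst3 was 0.96 (SE 0.23, adjusted p = 0.0813) and the peritumoral ratio to wild type liver 0.46 (SE 0.27, adjusted p = 0.429).

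**Figure D2:**
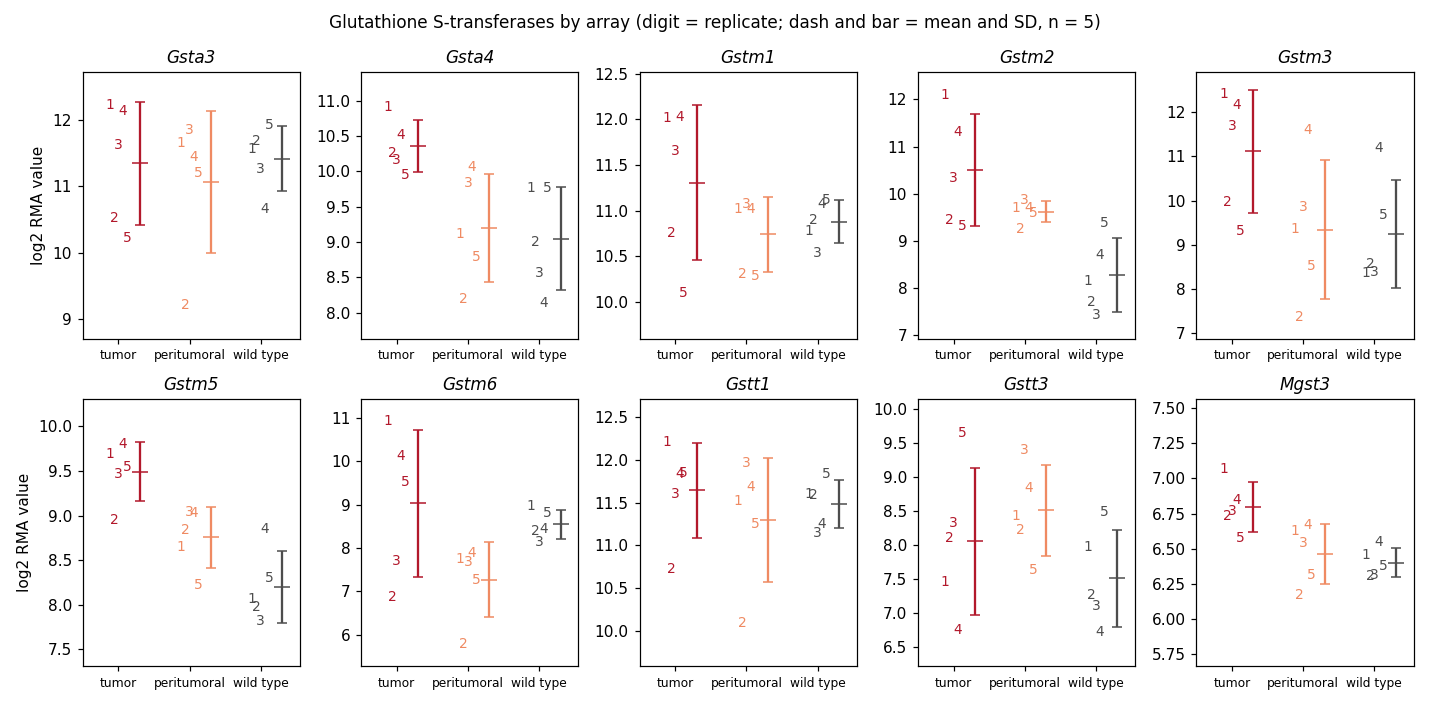
Log2 RMA values of the 10 members in each array, with tumors at the left, peritumoral liver in the middle and wild type liver at the right. Digits are replicate numbers, and the dash and bar give the mean and SD of 5 arrays. Gsta4, Gstm5 and Mgst3 have all tumors above all wild type arrays, and Gstm6 has all peritumoral arrays below them.

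Counted over the members, Gsta4, Gstm5 and Mgst3 were higher in every tumor than in every wild type array, which is 3 of 10 members beside 2.23% of all genes. Of the 12 other glutathione transferases measured, none was higher in this way, and 6 had a tumor ratio to wild type liver above 0. In peritumoral liver against wild type liver no member passed limma and 4 had an unadjusted p under 0.05, namely Gstm2, Gstm5 and Gstt3, which were higher, and Gstm6, which was lower. These counts stand beside 0.0403% of all genes that passed and 15.1% with an unadjusted p under 0.05, 5.18% of all genes higher and 9.88% lower. Gstm6 was the only member without overlap, with all peritumoral arrays below wild type liver, as in 2.08% of all genes. The median ratio of the members was 0.08 and that of all genes -0.06, with 6 of the 10 ratios above 0 beside 38.9% of all genes. Both comparisons use the same wild type arrays.

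The single tumors differed from each other. Set against the range of the 5 wild type arrays, 9 members were above it and none below in tumor 1, and 8 above and none below in tumor 4. In tumor 3, 6 were above and 1, Gstm6, was below. Tumor 2 had 4 above and 3 below, and tumor 5 had 6 above and 2 below. The largest difference from the wild type mean was that of Gstm2 in tumor 1, by 3.81 on the log2 scale or 14.0-fold, and the same gene led in tumor 4, by 3.04 or 8.24-fold. In tumor 3 Gstm3 led with 2.46, in tumor 2 Gsta4 with 1.21 and in tumor 5 Gstt3 with 2.13. The largest differences in the other direction were those of Gstm6 in tumor 2, at -1.69, and Gsta3 in tumor 5, at -1.19. Tumor 1 was the highest of the tumors for 7 members and tumor 5 the lowest for 6. A single array has no spread of its own, so these counts describe the arrays and were not tested. How many of all genes lay outside the wild type range in each array was not counted, so the counts have no background to stand beside.

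**Figure D3:**
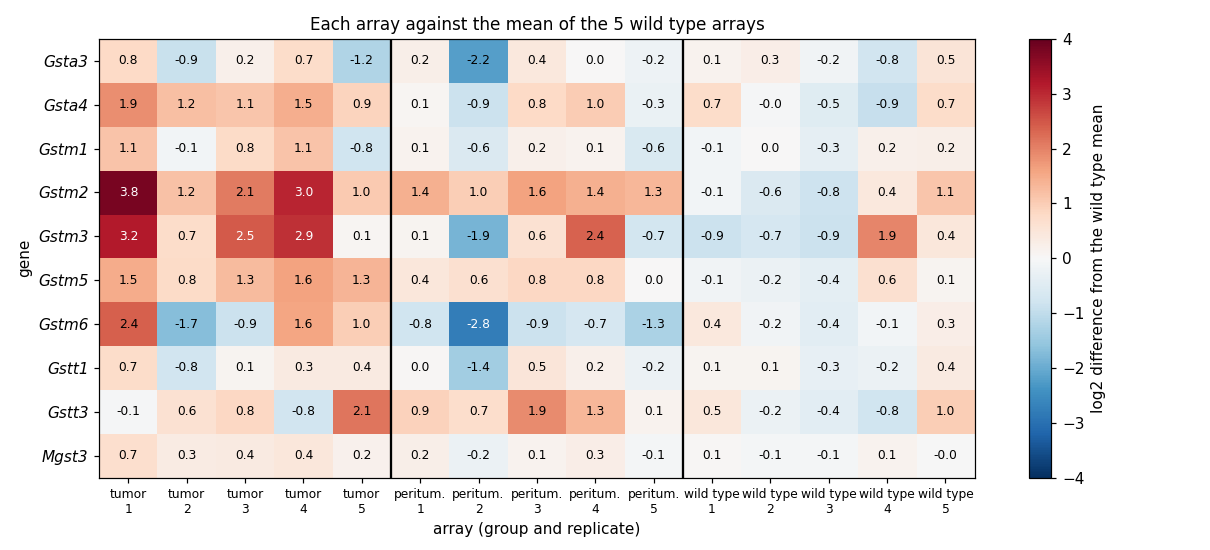
Difference of each array from the mean of the 5 wild type arrays, on the log2 scale, for the 10 members in rows and the 15 arrays in columns, tumors at the left and wild type liver at the right. Tumors 1 and 4 are high for most members, with Gstm2 at 3.8 and 3.0, tumor 5 is high for Gstt3, and the row of Gstm6 is low in all peritumoral arrays.

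Among peritumoral samples, sample 2 had 6 members below the wild type range and none above, while sample 4 had 6 above and 1 below and sample 3 had 5 above and 1 below. Samples 1 and 5 had most members inside the range. For these samples, too, the share of all genes outside the range was not counted. Gstm6 was the lowest member, relative to the wild type mean, in each of the 5 peritumoral samples, at -0.81, -2.77, -0.86, -0.67 and -1.28 in samples 1 to 5. Peritumoral sample 2 also had the highest Mat1a value of its group, and its values of Gsta3 and Gstt1 were the lowest of that group. Without it the peritumoral ratio to wild type liver was 0.12 for both Gsta3 and Gstt1, against -0.34 and -0.18 with it.

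Tumors and peritumoral liver of the KO mice were compared to separate the tumor from the KO liver around it. No member passed limma, and 4 had an unadjusted p under 0.05, Gsta4, Gstm5, Gstm6 and Mgst3, all higher in tumors, beside 0.0161% of all genes that passed, 9.28% with an unadjusted p under 0.05 and 4.65% with such a p that were higher. The groups overlapped for every member and did not for 2.33% of all genes. The ratio was above 0 for 9 members and for 54% of all genes, and its median was 0.65 for the members and 0.02 for all genes. The ratios, standard errors and p-values given for this comparison come from the limma fit without pairs, unless a block is named. Equally numbered tumors and peritumoral samples tended to deviate together from their group means. They were set side by side as pairs in an alternative fit and in the differences below, from the data and not from the labels. The likeness was weak for number 5 (correlation 0.117), and tumor 4 was more like peritumoral sample 1 than sample 4, so the pairs are uncertain. With the number as a block no member passed either, the smallest adjusted p being 0.175 for Gstm3, and 1 gene in all passed in place of 2. The block changed the precision unequally. The SE of Gstm3 was 0.39 with it and 0.84 without it, and that of Gstt3 0.54 and 0.51. Tumors were higher in all 5 pairs for Gsta4, Gstm3, Gstm5, Gstm6 and Mgst3, which is 5 of 10 members beside 6.42% of all genes. For Mgst3 this rests on the average of its probe sets. The brighter one was lower in tumor 4 than in peritumoral sample 4, at 9.17 and 9.29, and the dimmer one higher, at 4.52 and 4.05. For Gstm6 the differences in pairs 1 to 5 were 3.20, 1.08, 0.01, 2.25 and 2.25, so that pair 3 hardly differed, and for Gstm3 they were 3.07, 2.60, 1.84, 0.56 and 0.81. Gstt3 was higher in the tumor in 1 pair only, pair 5, by 2.00, and lower in the others, by a difference of -0.98, -0.11, -1.08 and -2.10 in pairs 1 to 4.

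**Figure D4:**
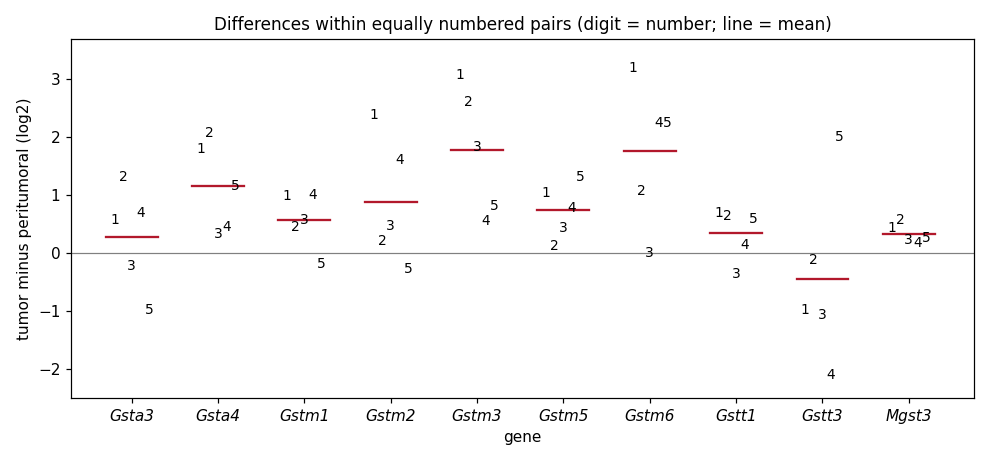
Tumor minus peritumoral difference on the log2 scale for each member, with digits for the 5 equally numbered pairs and a line at their mean. Values are averaged over the probe sets of a gene, and for Mgst3 the probe sets differ in direction in pair 4. Gsta4, Gstm3, Gstm5, Gstm6 and Mgst3 have all 5 digits above 0, the lowest of them 0.01 for Gstm6 in pair 3, while Gstt3 has only pair 5 above 0.

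The members differed in how they varied together over the 15 arrays. As a description across arrays that include all 3 groups, the highest Pearson correlation between members was 0.883, for Gstm3 and Mgst3, followed by 0.833 for Gstm2 and Gstm5 and 0.830 for Gstm1 and Gstm3. The 10 pairs of mu class members ranged from 0.361 to 0.833 with a median of 0.617, and the 26 other pairs without Gstt3 from 0.033 to 0.883 with a median of 0.599, so the mu pairs spread over much the same range as the others. Gstt3 varied apart from the rest, with correlations from -0.340 to 0.264 in its 9 pairs. Outside the family, among 12108 genes, the pattern most like that of a member was Akr1c12 for Gstt1 (0.967), Acaa1b for Gsta3 (0.962), Serpina6 for Gstm6 (0.959), Car2 for Gstm2 (0.939), Blnk for Gstm5 (0.929), Vdac1 for Gstm1 (0.904), Ccnd1 for Gstm3 (0.888), Tceal1 for Mgst3 (0.879), Gps1 for Gsta4 (0.859) and Hsd17b10 for Gstt3 (0.822). These points share the groups and the arrays that stood apart from their group. Car2, carbonic anhydrase 2, was read at 10.04, 7.17, 8.14, 9.24 and 6.93 in tumors 1 to 5 and at 5.07 to 6.72 in wild type liver. Its order of tumors 1, 4 and 3 is also that of Gstm2, which can follow from its choice by correlation with that gene.

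The other glutathione transferases gave no call. Of 17 listed, 12 were measured and none passed in any comparison. At an unadjusted p under 0.05, 1 of the 12 was higher in tumors than in wild type liver and none lower, and in peritumoral liver 2 were higher and 1 lower, beside 7.46% of all genes higher in tumors and 5.18% higher and 9.88% lower in peritumoral liver. Gsta2, an alpha class enzyme inducible through NRF2, had the smallest p for tumors, with 11.38, 11.30, 11.34, 10.58 and 9.90 in tumors 1 to 5, against 10.22 to 11.83 in peritumoral liver and 7.90 to 11.09 in wild type liver, and a tumor ratio to wild type liver of 1.43 (SE 0.58, adjusted p = 0.243). Gsto1 and Mgst2 were chosen after their values were seen. Gsto1, an omega class enzyme, was read at 7.08 and 6.79 in tumors 1 and 4, the tumors in which most members were high, and at 9.02 to 9.83 in tumors 2, 3 and 5, against 9.44 to 9.78 in wild type liver. Mgst2, a relative of Mgst3, was read at 8.38 and 8.81 in tumors 2 and 3 and at 4.47 to 5.48 in the other tumors, while peritumoral samples ranged from 5.11 to 7.88 and wild type samples from 4.41 to 5.41, with a peritumoral ratio to wild type liver of 2.29 (SE 0.48, adjusted p = 0.108).

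Among genes that make, recycle and degrade glutathione, 1 passed. Of 23 listed, 20 were measured, and 1 rose in tumors against wild type liver while none fell, beside 0.565% of all genes that passed. At an unadjusted p under 0.05 in limma, 2 were higher and 1 lower in this comparison, beside 17.4% of all genes in either direction. The gene that passed was Slc3a2, the heavy chain of amino acid transporters that include the cystine carrier, with 9.60, 9.47, 9.30, 9.41 and 9.76 in tumors 1 to 5 and 8.49 to 8.89 in wild type liver, a ratio of 0.81 (SE 0.12, adjusted p = 0.0209). No gene of this list passed on leaving out wild type sample 1, 2 or 5, and 3 passed without wild type sample 4, 2 without tumor 5 and 4 without the 3 set-aside arrays. None passed with all arrays in the comparisons of peritumoral liver with wild type liver or of tumors with peritumoral liver. The median ratio of the list in tumors was -0.04, beside -0.05 for all genes.

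Among NRF2, its regulators and its targets other than GSTs, 4 passed. Of 29 listed, 26 were measured, and 4 rose in tumors against wild type liver while none fell, beside 0.565% of all genes. The other 22 did not pass. Over the list 15 ratios were above 0 and 11 below, beside 41% of all genes above 0. The median ratio was 0.16, beside -0.05 for all genes, so the list did not rise as a whole. Nqo1, a quinone reductase, rose by 2.61 (SE 0.23, adjusted p = 0.000995), with 8.31, 7.25, 7.71, 7.95 and 8.56 in tumors 1 to 5 and 5.03 to 5.63 in wild type liver. Cbr3 and Cbr1, carbonyl reductases, rose by 3.62 (SE 0.41, adjusted p = 0.00495) and 1.35 (SE 0.16, adjusted p = 0.00609), and Srxn1, the sulfiredoxin that restores peroxiredoxins, by 1.28 (SE 0.23, adjusted p = 0.0468). In peritumoral liver Nqo1 alone of the list passed against wild type liver, with a ratio of 1.42 (SE 0.14, adjusted p = 0.00549) and values of 6.41 to 7.06, and none passed for tumors against peritumoral liver. The 4 calls in tumors against wild type liver became 3 on leaving out tumor 1, 3 or 4 or wild type sample 1, 2, 3 or 5, while 5 genes of the list passed without the 3 set-aside arrays and 11 without tumor 5 as well. Without wild type sample 4, 3 genes of the list passed in peritumoral liver, and 6 without the 3 set-aside arrays, and without tumor 2 or tumor 3, 3 and 2 passed for tumors against peritumoral liver. Nqo1 was high in every tumor, tumors 2 and 5 included.

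Among 13 genes that export or process glutathione conjugates, 10 were measured and none passed in any comparison. The smallest p in tumors against wild type liver was that of Abcc6, a transporter of the basolateral membrane, with a ratio of -1.15 (SE 0.39, adjusted p = 0.182). Of 17 genes of the xenobiotic receptors and their P450 targets, 14 were measured and none passed. The smallest p in tumors against wild type liver was that of Rxra, the partner of the nuclear receptors among them, at -0.75 (SE 0.25, adjusted p = 0.185). Of 18 Wnt-dependent pericentral genes, 17 were measured and none passed, with the smallest p for Tnfrsf19 at 0.83 (SE 0.54, adjusted p = 0.445). At an unadjusted p under 0.05, 3 of 10, 1 of 14 and 0 of 17 genes were called in this comparison, beside 17.4% of all genes. Over the 17 pericentral genes, 10 ratios of tumors to wild type liver were above 0 and 7 below. Their median was 0.09, beside -0.05 for all genes. Glul, Lgr5, Axin2 and Nkd1 of the pericentral list were chosen after their values were seen, and the other genes of the list are not described tumor by tumor. The genes so chosen do not stand for the list. Glul, glutamine synthetase of the cells around the central vein, was read at 13.30, 10.46, 10.76, 13.07 and 7.60 in tumors 1 to 5 and at 10.58 to 10.88 in wild type liver. Lgr5, Axin2 and Nkd1, which respond to Wnt signals, likewise had their highest values in tumors 1 and 4, at 8.98 and 7.43, 6.49 and 6.05, and 8.49 and 7.05. These are also the tumors with 9 and 8 members above the wild type range, counts that have no background over all genes. Tumor 5, the lowest of the tumors for 6 members, had the lowest Glul value. Yet 6 members were above the wild type range in tumor 5 and 2 below, and 6 were above it in tumor 3. With 5 tumors a link between these values was not tested.

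No cell type marker passed in any comparison, hepatocyte markers included. Of the 7 to 10 markers listed for each, 5 to 9 were measured for bile duct cells, macrophages, granulocytes, lymphocytes, stellate, endothelial and erythroid cells. Tumor 3 had the highest means for stellate cells and for bile duct cells, 7.61 and 6.53, against 5.73 to 6.22 and 4.46 to 4.79 in wild type liver, and its part in the results was not tested. Of the 7 endothelial markers, 3 were lower in every tumor than in every wild type array, beside 2.84% of all genes, and the list's mean was 5.48 to 6.07 in tumors and 5.93 to 6.69 in wild type liver. The markers did not all move 1 way, with 2 ratios of tumors to wild type liver above 0 and 5 below. At an unadjusted p under 0.05 in limma, 1 was higher and 4 lower, beside 17.4% of all genes in either direction.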

How the data were processed

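Total RNA of 5 tumors, 5 peritumoral samples and 5 wild type livers was measured on Affymetrix arrays, which the authors scanned with GCOS 1.4 and normalized by RMA, giving deposited log2 values for 22690 probe sets with array medians of 5.47 to 5.68. RMA corrects the background, forces 1 distribution on all arrays and summarises each probe set, so a shift shared by all genes cannot be seen. The genome build is not given in the sources used here. The deposited ratio columns are the authors' own comparisons of KO with wild type and were not used.

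Probe sets were named by the platform annotation. The 20380 non-control probe sets with 1 symbol were averaged for 12393 genes, while 691 probe sets with several symbols, none of them naming a member, and 1606 with none were left out. Each pair of groups was fitted with limma 3.58.1 in R 4.3.3 (lmFit and eBayes, no covariates), with Benjamini-Hochberg adjustment over the 12393 genes, and the code was tested on simulated data. The labels of the wild type samples do not say that they are separate animals, so the p-values measure the spread between samples, with 5 arrays a group as the limit of precision. No list was tested as a set.

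The members and lists were chosen with earlier results of these data known. The genes named are Mat1a, all members, the genes of each list that passed or, where none did, the gene with the smallest p for tumors against wild type liver, and for each member the gene with the highest correlation; others are marked as chosen after their values were seen. For tumors and peritumoral samples of the same number, deviations from the group mean correlated at 0.353, 0.673, 0.271, 0.308 and 0.117 across genes. Pairs by number were therefore used, from the data and not from the labels, in the pair differences and in the alternative with a replicate block. The main fit of these groups has no block. The best match of tumor 4 was peritumoral sample 1, and that of each other tumor was the sample of its own number. The correlations with wild type arrays lay between -0.223 and 0.207, and those comparisons are unpaired. Alternatives changed the probe set summary, the filter, the normalization, the fit and the samples, and 2 that leave out the 3 set-aside arrays, without and with tumor 5, were added after seeing the data.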

Additional observations from a re-analysis of the deposited data

Results flagged for a closer look

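Of 30 sets of 5 arrays, 1 for each member and group, 2 held an array farther from the others than Dixon's criterion allows, and chance alone would mark about 1 in 20 such sets. Both were peritumoral sample 2. Its Gsta3 value of 9.21 lay below the other peritumoral values of 11.21 to 11.85. Its Gstm6 value of 5.78 lay below the other peritumoral values of 7.27 to 7.88, and all of these were below wild type liver as well.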

How the results depend on the processing

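The precision is limited by 5 arrays a group, of which several stood apart. Of 650 alternative values for the 30 ratios of the members, 601 kept direction and side of the threshold, 7 lost a call, 19 gained one and 23, in 9 ratios, changed sign. The cause of these changes was not tested. For tumors against wild type liver, where 1 member and 70 genes passed, 2 members and 287 genes passed with all 3 groups in 1 fit, 0 and 10 with the replicate block, 6 and 1838 with array weights, and 6 and 1431 without the 3 set-aside arrays and tumor 5, these 6 being Gsta4, Gstm1, Gstm2, Gstm3, Gstm5 and Mgst3 in both settings. The setting without the 3 set-aside arrays and tumor 5 leaves out tumors 2 and 5, the lowest for Gstm1, Gstm2, Gstm3 and Mgst3. The genes passing were 115 after quantile normalization again, 44 with a trend and 569 without the 3 set-aside arrays. For peritumoral against wild type liver, 0 members and 5 genes passed, against 2 members and 1082 genes with array weights and 2 and 958 without the 3 set-aside arrays, both members being Gstm2 and Gstm6. The genes were 11 with the highest probe set, 12 with 3 groups, 0 with the replicate block and 15 with a test per probe set. For tumors against peritumoral liver, 0 members and 2 genes passed, against 4 members (Gsta4, Gstm2, Gstm5 and Gstm6) and 673 genes with array weights. The genes were 4 with the highest probe set or a test per probe set, 41 with 3 groups, 1 with the replicate block, and 40 and 132 without the 3 set-aside arrays, tumor 5 kept and left out. Leaving out each array in turn gave 0 to 1, 0 and 0 members and 10 to 319, 4 to 267 and 0 to 36 genes in these 3 comparisons. The highest counts came without wild type sample 4 in both comparisons with wild type liver, and without tumor 2 in the other. The replicate block ended the call of Gstm5 in tumors against wild type liver (adjusted p = 0.0800), gave 2 calls for the NRF2 list there in place of 4, 0 in place of 1 (Nqo1) in peritumoral against wild type liver, and 0 in place of 1 (Slc3a2) for the genes of glutathione metabolism in tumors against wild type liver, changed no other call of a member, and in these unpaired groups the samples share only a number.

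Signs changed as follows. For tumors against wild type liver Gsta3 was 0.062 with the highest probe set, 0.40 with array weights, 0.39 without the 3 set-aside arrays and tumor 5, and -0.29 to 0.21 on leaving out each array, and Gstt3 was -0.32 with array weights and -0.20 without those arrays and tumor 5. For peritumoral against wild type liver Gstm3 was -0.15 with the highest probe set, Mgst3 was -0.33 with a test per probe set, and Gstm1 and Gstt1 were 0.015 and 0.062 without the 3 set-aside arrays. On leaving out each array there, Gsta3 lay between -0.54 and 0.12, Gsta4 between -0.079 and 0.40, Gstm3 between -0.47 and 0.59 and Gstt1 between -0.35 and 0.12. For tumors against peritumoral liver Gsta3 lay between -0.19 and 0.56. The authors' ratio columns, planned as an alternative, were not run, since they hold the authors' own comparisons.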

Other observations

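Gstm4, the mu class gene beside Gstm1, is no member and was chosen after its values were seen. It was read at 10.13, 6.49, 9.55, 10.14 and 8.95 in tumors 1 to 5, at 6.52 to 9.53 in peritumoral liver and at 8.22 to 8.90 in wild type liver, with the lowest peritumoral value in sample 2. Nfe2l2, which encodes NRF2, was read at 5.82 in tumor 2 and at 8.46 to 10.06 in the other tumors, against 8.61 to 9.10 in wild type liver, and was likewise chosen after its values were seen.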
